A study of Mus musculus with 20 samples.

Results

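The solute carriers (Slc genes) of jejunal epithelium, apart from 13 well-known nutrient, bile acid and urea carriers, comprised 234 genes, of 15882 gene names measured at both times. They were chosen by symbol and by level in controls: every gene whose symbol begins with Slc and a digit and whose control libraries averaged at least 1 CPM (a gene's reads scaled to a fixed library total) at both times. Left out by name were Slc5a1, Slc2a2, Slc2a5, Slc15a1, Slc6a19, Slc7a9, Slc3a1, Slc7a7, Slc5a8, Slc51a, Slc51b, Slc10a2 and Slc14a1. Of 312 Slc genes at both times, 246 reached that level, among them 12 of the 13 left out. The rule used control levels and no DKO values, but control levels also enter each fold change. A floor on controls keeps genes that are low in DKO only and drops genes that are low in controls only. It can thus favour falls among the genes kept. The genes left out by name were chosen with earlier results of these data known. Just inside the level were Slc1a2, at 1.02 CPM in acute and 3.39 CPM in prolonged controls, Slc16a8 (1.02 and 1.04 CPM) and Slc25a43 (1.03 and 1.09 CPM). Just outside were Slc39a2 (0.984 and 1.07 CPM), Slc7a11 (2.47 and 0.973 CPM) and Slc43a1 (0.894 and 0.925 CPM). By what they encode, 227 of the 234 are carriers. The other 7 carry an Slc symbol only: Slc13a2os, Slc22a13b-ps, Slc2a4rg-ps, Slc4a1ap, Slc7a6os and the scaffold genes Slc9a3r1 and Slc9a3r2. Role classes of carriers below were set by SLC family number alone. A class thus holds relatives that may carry other solutes, and misses carriers numbered in other families.

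RNA-seq of poly(A) RNA compared control or wild-type female mice with Kdm6a/Kdm6b double-knockout (DKO) females. The acute libraries, 5 control and 7 DKO, came from 7 days after ablation, and the prolonged libraries, 3 control and 5 DKO, from 5 months after it. The labels call the material intestinal epithelial cells of the jejunum, and the series design speaks of crypt cells. Strain, age, the driver of the ablation and what the control mice received are not given in the sources used here.

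Solute carriers move nutrients, ions, vitamins, metals and metabolites across membranes, either down a gradient or coupled to sodium, protons or a second solute. In the jejunum, absorption pairs a carrier of the apical membrane with another of the basolateral membrane, while carriers of the SLC25 family serve mitochondria and those of the SLC35 family the Golgi. Kdm6a and Kdm6b encode enzymes that remove methyl groups from lysine 27 of histone H3, a mark of repressed genes.

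Both targeted genes were lower in DKO: Kdm6a by -0.62 at each time, and Kdm6b by -0.53 and -0.42, as log2 fold changes (limma adjusted p at most 0.00132). Reads in genes ran from 9910000 to 26600000 per library. All 10 epithelial markers were measured, and their summed level was 12103 to 12824 CPM in acute controls and 12646 to 14185 CPM in acute DKO libraries. Of 12 crypt markers, 10 were lower in acute DKO libraries and 9 in prolonged ones, with summed levels of 2315 to 2882 CPM against 1128 to 1762 CPM, and of 2631 to 3069.8 CPM against 1798 to 2135 CPM, so the groups did not overlap. Paneth cell markers were lower for 5 of 6 at each time, and villus enterocyte markers higher for 2 of 12 at each. Of 8 enteroendocrine markers, 2 were lower at the acute time, and 4 lower and 1 higher at the prolonged time. The summed immune markers were 1652 to 2020.0 CPM in prolonged controls and 2158 to 2425 CPM in prolonged DKO libraries, without overlap. Of 15 tested there, 1 was called higher. At the acute time the sums overlapped (1868 to 2469 and 2051 to 2978 CPM). Cd74 alone, at 1339 to 1831 CPM over the prolonged libraries, made up most of the prolonged sum. Lyz2 ran from 3.02 to 342 CPM over the acute libraries and from 1.26 to 3.78 CPM over the prolonged ones. Acute DKO 3 and 4 stood apart from the other libraries on the first principal component (34 and 45.9, against -28 to 12.1), and acute DKO 3 had the highest stromal sum, 715 CPM. The part of these markers in the results for the carriers was not tested. In bulk RNA, fewer cells of a type and less RNA per cell cannot be told apart.

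At the acute time, 40 of the 234 genes were called, 13 higher and 27 lower in DKO, at an adjusted p under 0.05 over all genes tested (limma-trend on log2(CPM + 1), Benjamini-Hochberg). That is 17.1% of them, where 15.0% of all genes tested were called (2.90% higher, 12.1% lower), and 16.3% of genes at 1 CPM or more in both control groups. At the prolonged time 54 were called, 17 higher and 37 lower, or 23.1%. The background there was 14.7% of all genes tested (5.74% higher, 8.94% lower), and 15.4% at that level. The median log2 fold change of the 234 was -0.04 in the acute and -0.01 in the prolonged comparison, beside -0.07 and 0.00 over all genes tested. DKO and control libraries did not overlap for 14 of them at the acute time, against 7.79% of all genes, and for 62 at the prolonged time, against 20.5%.

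The acute split depended on the scaling and on the test used. Scaling moved the median of all genes by up to 0.10 on the log2 scale. It was 13 higher and 27 lower as deposited, 14 and 19 with CPM scaled by TMM factors (4.85% and 8.26% of all genes), and 16 and 19 with edgeR and TMM factors (4.90% and 7.95%). edgeR with relative log expression (RLE) factors gave 18 and 18 (5.41% and 7.57%), and DESeq2 30 and 20 (6.66% and 8.35%). These last fits moved the median by the same 0.10, but differ in their test and in the genes tested (13601 and 15617). The prolonged split held within 17 to 21 higher and 34 to 37 lower under the same 5 fits. It was 20 and 34 with TMM-scaled CPM (6.55% and 8.70% of all genes) and 17 and 35 with edgeR and TMM factors (6.20% and 8.75%). RLE factors gave 19 and 35 (6.16% and 8.76%), and DESeq2 21 and 37 (6.57% and 9.08%). In no alternative run did a called gene change its direction. Leaving out a single library moved the acute rises most, to 4 without control 3, 5 without control 1 or 4, 6 without control 2 and 7 without DKO 1 or 3. The acute falls dropped to 16 without control 4, and the prolonged falls to 22 without control 3. The calls held with TMM and RLE scaling and in every leave-one-out fit that tested the gene for 15 acute and 30 prolonged genes. The only rise among the acute ones was Slc28a2. The share of all genes whose calls held in this way is not given here either. A fit with acute animals of neighbouring numbers as a block, in which control 5 and DKO 3 and 4 have no partner in the other group and add nothing to the comparison, gave 16 higher and 19 lower (2.44% and 7.99% of all genes). It ended 16 of the 40 acute calls (adjusted p = 0.0517 to 0.303) and made 11 others. The calls ended were Slc18b1, Slc19a3, Slc25a22, Slc25a28, Slc35d1, Slc35g1 and Slc36a1 among the rises, and Slc1a5, Slc22a13b-ps, Slc23a3, Slc25a10, Slc35e2, Slc44a3, Slc47a1, Slc6a20a and Slc6a3 among the falls. Whether neighbouring numbers mark a shared litter or day is not given. The low genes Slc6a20b and Slc6a3 fell below the test's filter when a prolonged control was left out. Neither had a prolonged DKO library at the filter's 0.5 CPM. They were thus tested at that time through their controls, and only a fall could be called. Both are among the prolonged falls and the 30 prolonged calls that held, and add no support to either count.

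Both times gave the same direction for 26 genes called at both, 6 higher and 20 lower, and for none in opposite directions; 8.01% of all genes were called at both times in 1 direction. These 26 make up 65.0% of the acute and 48.1% of the prolonged calls. Over all genes, 1049 were called at both times in 1 direction, beside 2035 acute and 1955 prolonged calls. Repeated calls are therefore not particular to the 234 genes. A further 14 were called at the acute time only and 28 at the prolonged time only, and 166 at neither. The times have separate controls, and across the 234 genes the log2 fold changes had a Pearson r of 0.752 and a Spearman rho of 0.697. Over all genes tested r was 0.787 and rho 0.678. The points share their libraries, so these are descriptions. No gene of the 234 differed in its DKO effect between times: the smallest adjusted p was 0.616, by the difference of both limma fold changes, and 12 had an unadjusted p under 0.05. Over all genes, 0.0382% passed adjusted and 6.78% unadjusted. edgeR's interaction test called none either, with 10 at an unadjusted p under 0.05.

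**Figure D1:**
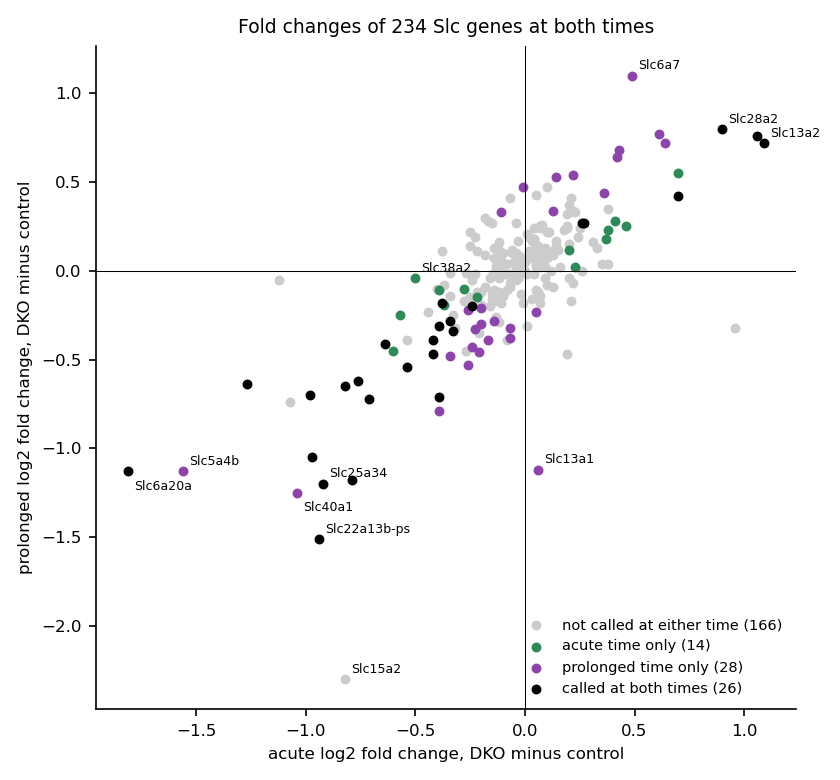
Each point is 1 of the 234 Slc genes, with its acute log2 fold change (DKO minus control, log2(CPM + 1) scale) on the x axis and its prolonged one on the y axis; colours give the times at which it was called. The 26 genes called at both times lie in the lower left (20) and upper right (6), and Slc13a1 sits low on the y axis near 0 on the x axis.

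Promoters are shown for 5 genes that the values below turn on, 3 that were lower and 2 that were higher, as a view of how CpG content varies among them. Promoters rich in CpG sites are those at which methylation of H3K27 is best known. The genes and motifs were chosen after the results were seen. Each is the 250 bases before the start that RefSeq lists first (GRCm38.p6), 5′ to 3′, with each CG in capitals. Slc6a20a lies at chr9:123678833-123679082 on the minus strand, Slc25a34 at chr4:141623835-141624084 on the minus strand, Slc30a1 at chr1:191906531-191906780 on the plus strand, Slc28a2 at chr2:122426185-122426434 on the plus strand and Slc13a2 at chr11:78422235-78422484 on the minus strand.
Slc6a20a: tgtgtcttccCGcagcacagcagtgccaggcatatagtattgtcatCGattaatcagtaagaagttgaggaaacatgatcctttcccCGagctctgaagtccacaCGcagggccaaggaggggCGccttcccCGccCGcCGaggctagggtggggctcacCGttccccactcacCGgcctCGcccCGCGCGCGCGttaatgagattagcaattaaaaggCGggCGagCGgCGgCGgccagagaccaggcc
Slc25a34: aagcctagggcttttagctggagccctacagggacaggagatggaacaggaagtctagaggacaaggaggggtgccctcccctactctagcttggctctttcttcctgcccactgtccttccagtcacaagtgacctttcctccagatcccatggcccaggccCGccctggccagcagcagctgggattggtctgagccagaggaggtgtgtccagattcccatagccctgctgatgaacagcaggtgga
Slc30a1: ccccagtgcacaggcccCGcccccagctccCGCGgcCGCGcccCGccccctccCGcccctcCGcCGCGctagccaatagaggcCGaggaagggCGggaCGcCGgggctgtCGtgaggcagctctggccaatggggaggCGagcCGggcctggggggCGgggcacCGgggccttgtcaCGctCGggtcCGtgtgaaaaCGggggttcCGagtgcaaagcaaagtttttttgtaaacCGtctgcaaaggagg
Slc28a2: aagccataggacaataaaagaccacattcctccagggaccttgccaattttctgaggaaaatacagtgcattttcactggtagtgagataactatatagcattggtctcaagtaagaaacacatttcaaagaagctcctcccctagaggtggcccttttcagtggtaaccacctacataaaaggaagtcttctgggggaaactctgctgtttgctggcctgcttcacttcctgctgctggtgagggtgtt
Slc13a2: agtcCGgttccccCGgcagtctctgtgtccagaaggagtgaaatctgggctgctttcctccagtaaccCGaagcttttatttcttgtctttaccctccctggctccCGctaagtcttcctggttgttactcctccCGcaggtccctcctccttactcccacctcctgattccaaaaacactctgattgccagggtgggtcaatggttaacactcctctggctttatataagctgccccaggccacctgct
The CG count was 21 in Slc6a20a, 1 in Slc25a34 and 25 in Slc30a1, all lower in DKO, and 0 in Slc28a2 and 5 in Slc13a2, both higher. The fallen genes thus include windows with many CG and with almost none. On both strands, 4 motifs were searched: the metal response core TGCACNC, the amino acid response core TGATGNAA, CAAAGTCCA for HNF4 and AGATAA for GATA factors. The metal core occurred once in Slc30a1, as GAGTGCA, and is in 10.2% of all 27025 promoters of the same length. AGATAA occurred once in Slc28a2 and is in 10.3% of them. TGATGNAA (3.53% of all) and CAAAGTCCA (0.381%) were in none of the 5 windows, which says only that these letters are not in them. No hits of different motifs overlapped in these windows. RefSeq windows were matched for 178 of the 234 genes and for 27 of the 44 called lower. That is too few to compare promoters between called and other genes.

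Of 25 genes in families of metal carriers, 4 were called lower at the acute time and 9 at the prolonged time, with none higher. Over all genes tested 12.1% and 8.94% were lower. The iron carrier Slc25a28, called higher at both times, is classed with the mitochondrial carriers. Magnesium carriers are classed with ions, and of these Slc41a2 was lower at the prolonged time. The median log2 fold change of the 25 was -0.02 and -0.12. Slc40a1, the exporter that passes iron from enterocytes to blood, had the largest fall. Its prolonged controls read 17.2, 16.3 and 14.3 CPM and its DKO libraries 6.05, 6.61, 6.67, 5.53 and 5.77 CPM. Every DKO value lay below every control, and the log2 fold change was -1.25 ± 0.10 (SE, limma adjusted p = 2.44e-05). At the acute time controls read 31.6, 22.7, 20.0, 35.5 and 29.0 CPM and DKO libraries 7.00 to 31.8 CPM, with a median of 10.7 CPM. There acute DKO 3 and 4, at 25.3 and 31.8 CPM, reached the control range, and the change of -1.04 ± 0.33 was not called (adjusted p = 0.0503). Without DKO 3 it was -1.20 (0.0268), without DKO 4 -1.25 (0.00725) and without both -1.48 (adjusted p = 0.000284), and with the animal-number block it was -1.66 (0.000421).

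Slc30a1, which exports zinc from the cell, fell at both times. Acute controls held 36.3, 43.1, 35.5, 36.3 and 35.1 CPM and DKO libraries 23.9 to 33.9 CPM, median 27.5 CPM. Prolonged controls held 39.3, 39.7 and 35.7 CPM and DKO libraries 26.9, 25.5, 23.9, 30.7 and 30.1 CPM. Control and DKO libraries did not overlap at either time, and the log2 fold changes were -0.42 ± 0.09 (adjusted p = 0.00677) and -0.47 ± 0.09 (0.00450). With edgeR and RLE factors the acute call was lost (adjusted p = 0.0533).

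Of the 12 members of the SLC39 family, most of them zinc importers, 3 were lower in acute and 5 in prolonged DKO libraries. The shares of all genes tested that were lower were 12.1% and 8.94%. Slc39a8, which also takes up manganese, fell by 0.42 ± 0.08 in acute (adjusted p = 0.00330) and 0.39 ± 0.08 in prolonged DKO libraries (0.00952), from 35.0 ± 2.36 CPM (SD, n = 5) to 26.0 ± 2.66 CPM (n = 7), and from 29.0 ± 0.937 CPM (n = 3) to 22.1 ± 1.97 CPM (n = 5). Slc39a5, a basolateral importer, fell by 0.38 ± 0.08 and 0.18 ± 0.05 (limma adjusted p = 0.00622 and 0.0441). Slc39a4, the apical importer of dietary zinc, changed by -0.15 and -0.16 and was not called. Slc11a2, the apical importer of iron, fell at the prolonged time by 0.28 ± 0.07 (adjusted p = 0.0195), and its acute change of -0.14 was not called. The copper importer Slc31a1 changed by 0.03 and -0.16, without a call except when prolonged control 1 was left out (-0.27, 0.0342). Slc39a11 fell by 0.24 and 0.20 (0.0161 and 0.0163), Slc39a10, Slc39a14 and Slc30a2 by 0.39, 0.23 and 0.32 at the prolonged time. Several prolonged calls rest on single libraries. Without prolonged control 3 the count of 9 fell to 2 (Slc30a1 and Slc40a1), and without control 2, DKO 1 or DKO 2 it was 5. Slc39a8 then had an adjusted p of 0.0505 (without control 3), Slc11a2 of 0.0504 and 0.0960 (without controls 1 and 3), Slc39a11 of 0.0783 (without control 3), and Slc39a5 kept its call in the leave-one-out fit without DKO 3 only. Slc39a10 was likewise called only without DKO 3. Slc39a14 lost its call without controls 2 or 3 or DKO 1, 2, 4 or 5 (up to 0.219), and Slc30a2 without controls 2 or 3 or DKO 1 or 2 (up to 0.145). The acute count was 3 with TMM-scaled CPM and 2 with RLE factors, where Slc39a11 was not called (0.185 and 0.242). The prolonged count was 7 with TMM-scaled CPM or with edgeR and TMM factors, and 6 with RLE factors. Slc39a14 was lost in all 3 (0.0651, 0.0683 and 0.0712), Slc30a2 with TMM-scaled CPM and with RLE factors (0.0501 in both), and Slc39a5 in both edgeR fits (0.0536 and 0.0535). Slc30a4 was called higher in a few fits: with DESeq2 at the acute time (0.29, 0.0430) and without prolonged DKO 2 (0.29, 0.0198). Slc31a2 was called higher without prolonged control 1 (0.50, 0.0256).

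**Figure D2:**
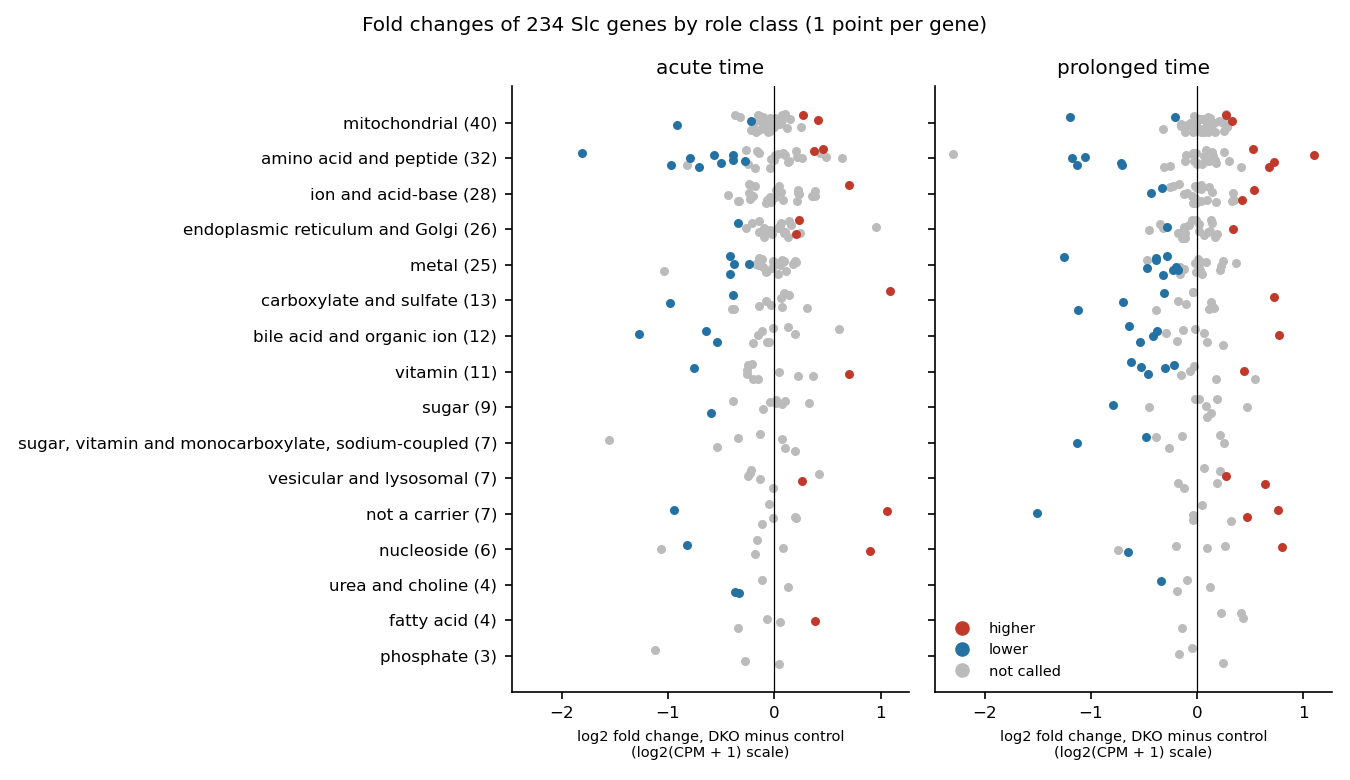
Each point is a gene, placed by its log2 fold change (x axis, DKO minus control, log2(CPM + 1) scale) in the row of its role class, with the number of genes in brackets; the left panel is the acute and the right the prolonged time, and colour gives the call. The metal row has blue points and no red ones at both times, and most of the 40 mitochondrial carriers lie close to 0. Rows follow the SLC family number, so the iron carrier Slc25a28 is in the mitochondrial row.

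Families of amino acid and peptide carriers gave 2 higher and 9 lower of 32 at the acute time, and 4 higher and 5 lower at the prolonged time. These counts take in all SLC6 genes, among them the dopamine carrier Slc6a3, lower at both times, and the creatine carrier Slc6a8, higher at the acute time. Over all genes tested 2.90% were higher and 12.1% lower at the acute time, and 5.74% and 8.94% at the prolonged time. Slc6a20a, a sodium-coupled carrier of proline, fell at the prolonged time from 143, 180.0 and 154 CPM in controls to 85.7, 57.7, 78.1, 58.7 and 82.6 CPM in DKO. These groups did not overlap (log2 fold change -1.13 ± 0.13, limma adjusted p = 0.000199). Acute controls read 117, 182, 190.5, 159.8 and 148 CPM and DKO libraries 6.25 to 125 CPM, median 52.2 CPM. The lowest 2 were DKO 4 at 6.25 CPM and DKO 3 at 18.6 CPM, and DKO 5 at 125 CPM lay within the control range. The acute change of -1.81 ± 0.57 just passed (adjusted p = 0.0467). It did not pass under edgeR with TMM factors (0.0841), with DESeq2 (0.0845) or without any 1 of 8 libraries, among them control 3 (0.112). Without both DKO 3 and 4 it was -1.04 (0.00862), and with the animal-number block -0.81 (0.103). Its neighbour and near copy Slc6a20b fell from 1.48 to 0.392 CPM and from 2.08 to 0.357 CPM, with the acute call lost without control 3 (0.0617) or control 4 (0.0553). No prolonged DKO library of Slc6a20b reached the filter's 0.5 CPM (0.185 to 0.481 CPM). Like Slc6a3, it was tested there through its controls, so only a fall could be called. Both count among the 5 prolonged falls of this class. Reads of the pair may have been divided in an unknown way.

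Slc38a1, a sodium-coupled carrier of glutamine and other neutral amino acids, was lower in every DKO library at both times. Acute controls read 96.8, 78.6, 85.3, 79.0 and 74.1 CPM and DKO libraries 55.1 to 73.4 CPM, median 62.2 CPM. Prolonged controls read 94.3, 76.5 and 83.8 CPM and DKO libraries 47.9, 59.3, 56.9, 47.0 and 47.4 CPM. The log2 fold changes were -0.39 ± 0.08 (limma adjusted p = 0.00619) and -0.71 ± 0.09 (0.000482).

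Slc38a2, its neighbour on the chromosome and a carrier of the same kind, was lower at the acute time. Controls read 149, 119.6, 157, 142 and 133 CPM and DKO libraries 82.3 to 107 CPM, median 102 CPM, without overlap (-0.50 ± 0.08, limma adjusted p = 0.00110). At the prolonged time controls read 135, 106 and 127 CPM and DKO libraries 121, 139, 109, 102 and 122 CPM, which overlap (-0.04 ± 0.10, 95% interval -0.26 to 0.17). The difference between times was 0.46 ± 0.13 and did not pass (unadjusted p = 0.00141, adjusted p = 0.616, by the difference of both limma fold changes).

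Among other genes of this class, Slc1a4, which exchanges alanine, serine and cysteine, fell by 0.71 ± 0.18 and 0.72 ± 0.15 (limma adjusted p = 0.0161 and 0.00914). Its prolonged call was lost without control 3 (0.0541). Slc6a3, the dopamine carrier, was low in all libraries and fell from 1.97 ± 1.06 to 0.458 ± 0.354 CPM at the acute time (limma adjusted p = 0.0136), a call lost with the animal-number block (0.0659). Its prolonged controls read 1.08, 1.89 and 1.82 CPM, above DKO libraries of 0.159, 0.247, 0.413, 0.0970 and 0.301 CPM. All of these DKO values are under the 0.5 CPM of the filter. The gene was thus tested there through its controls alone, only a fall could be called, and the prolonged call is no support. Slc1a5, Slc7a1 and Slc7a5, importers of glutamine, of cationic and of large neutral amino acids, were lower at the acute time, by 0.39, 0.28 and 0.57 (0.0363, 0.0220 and 0.0282), and were not called at the prolonged time. With TMM-scaled CPM their adjusted p was 0.0506, 0.0989 and 0.0811, without control 1 it was 0.0926, 0.0564 and 0.0703, and without control 4 it was 0.0821, 0.0636 and 0.0693. With that scaling 5 of the 32 were lower, and without acute control 1 or 3 also 5, and without control 4 it was 4. Without prolonged control 1 or 2 the prolonged falls were 3, and without control 3 they were 2.

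Slc6a7, a proline carrier best known from brain, rose in every prolonged DKO library. Controls read 6.64, 5.67 and 6.96 CPM and DKO libraries 14.8, 16.7, 16.5, 14.1 and 12.6 CPM (log2 fold change 1.10 ± 0.11, limma adjusted p = 9.71e-05). At the acute time the DKO libraries ran from 6.11 to 18.4 CPM, median 12.1 CPM, against 5.81, 6.37, 8.16, 11.1 and 7.27 CPM. DKO 3 and 4 were the lowest 2, and the change of 0.49 ± 0.25 was not called (adjusted p = 0.205); without them it was 0.79 (adjusted p = 0.00839), and with the animal-number block 0.75 (0.0381). Slc7a15, which belongs to the family of amino acid exchangers, rose at the prolonged time from 107 ± 26.4 CPM (n = 3) to 169 ± 11.8 CPM (n = 5), by 0.68 ± 0.13 (limma adjusted p = 0.00459). Slc15a2, a peptide carrier, had the largest prolonged change, -2.30 ± 0.74, and was not called (adjusted p = 0.0595): controls read 21.2, 8.54 and 21.1 CPM and DKO libraries 0, 5.07, 0.0688, 13.2 and 3.85 CPM. Without prolonged DKO 4 it was -2.82 (0.0144). The other rises were Slc36a1 (0.37) and the creatine carrier Slc6a8 (0.46) at the acute time, and the glutamate carrier Slc1a2 (0.72) and Slc38a9 (0.53) at the prolonged time. Slc36a1 and Slc6a8 were not called with TMM-scaled CPM (0.0530 and 0.0514), nor without any 1 of 6 and 7 libraries (0.117 and 0.113 without control 3). Slc1a2 lost its call without prolonged control 1 (0.0541), and Slc38a9 without control 3 (0.111) or DKO 5 (0.0511). The subunit gene Slc3a2 (0.08 and 0.08), the exchanger Slc7a8 (0.10 and 0.08) and the glutamate carrier Slc1a1 (-0.27 and -0.01) were not called, apart from Slc1a1 without acute control 5 (-0.34, 0.0383).

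Nucleoside carriers included both a rise and a fall. Slc28a2, which takes up purine nucleosides with sodium, was higher in every DKO library at both times. Acute controls read 39.3, 81.5, 77.9, 89.5 and 91.3 CPM and DKO libraries 93.7 to 229.5 CPM, median 133 CPM. Prolonged controls read 49.0, 105 and 64.8 CPM and DKO libraries 124, 115, 110.1, 126 and 136 CPM. The log2 fold changes were 0.90 ± 0.22 (limma adjusted p = 0.0161) and 0.80 ± 0.18 (0.0105), the latter lost without prolonged control 3 (0.0518).

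Slc29a1, an equilibrative nucleoside carrier that needs no sodium, was lower in every DKO library at both times. Acute controls read 28.7, 24.0, 27.8, 27.0 and 26.8 CPM and DKO libraries 11.5 to 20.5 CPM, median 13.5 CPM. Prolonged controls read 29.3, 21.2 and 29.6 CPM and DKO libraries 17.4, 17.0, 16.9, 14.9 and 15.9 CPM. The changes were -0.82 ± 0.13 (limma adjusted p = 0.00103) and -0.65 ± 0.11 (0.00237). The pyrimidine carrier Slc28a1 changed by -1.07 ± 0.51 and -0.74 ± 0.24, neither called. The second was called without prolonged control 1 (-1.05, 0.00883) or DKO 1 (-0.83, 0.0458).

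Carboxylate and sulfate carriers moved in both directions. Slc13a2, which takes up dicarboxylates such as citrate and succinate, rose in the prolonged DKO libraries to 365, 248, 309.9, 266 and 315 CPM from 124, 234 and 201 CPM. These did not overlap (0.72 ± 0.17, limma adjusted p = 0.0168). At the acute time DKO libraries ran from 131 to 370.0 CPM, median 254 CPM, and overlapped with controls at 131, 66.0, 86.0, 114 and 195 CPM. The acute rise of 1.09 ± 0.29 (adjusted p = 0.0227) was lost without control 2 (0.0600) or control 3 (0.0702). The antisense gene Slc13a2os gave 1.06 and 0.76, and since the strand setting of the counting is not given, reads of the pair cannot be told apart. Slc13a1, the sulfate carrier, fell at the prolonged time from 58.5, 76.6 and 84.6 CPM to 24.8, 56.2, 36.7, 24.9 and 29.1 CPM (-1.12 ± 0.23, adjusted p = 0.00652). Its acute DKO libraries spread from 32.4 to 340.0 CPM around controls of 62.3 to 151 CPM, with a change of 0.06 ± 0.46. Slc16a1, a carrier of lactate and butyrate, fell without overlap at both times, by 0.39 ± 0.07 and 0.31 ± 0.06 (adjusted p = 0.00331 and 0.00454). Slc16a12, a creatine carrier, fell by 0.98 ± 0.18 and 0.70 ± 0.15 (0.00302 and 0.00902). Its levels were low: 2.76 to 6.55 CPM in acute controls and 1.59 to 2.96 CPM in acute DKO libraries, which overlap. At the prolonged time they were 3.21 to 4.10 CPM and 1.36 to 2.55 CPM.

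**Figure D3:**
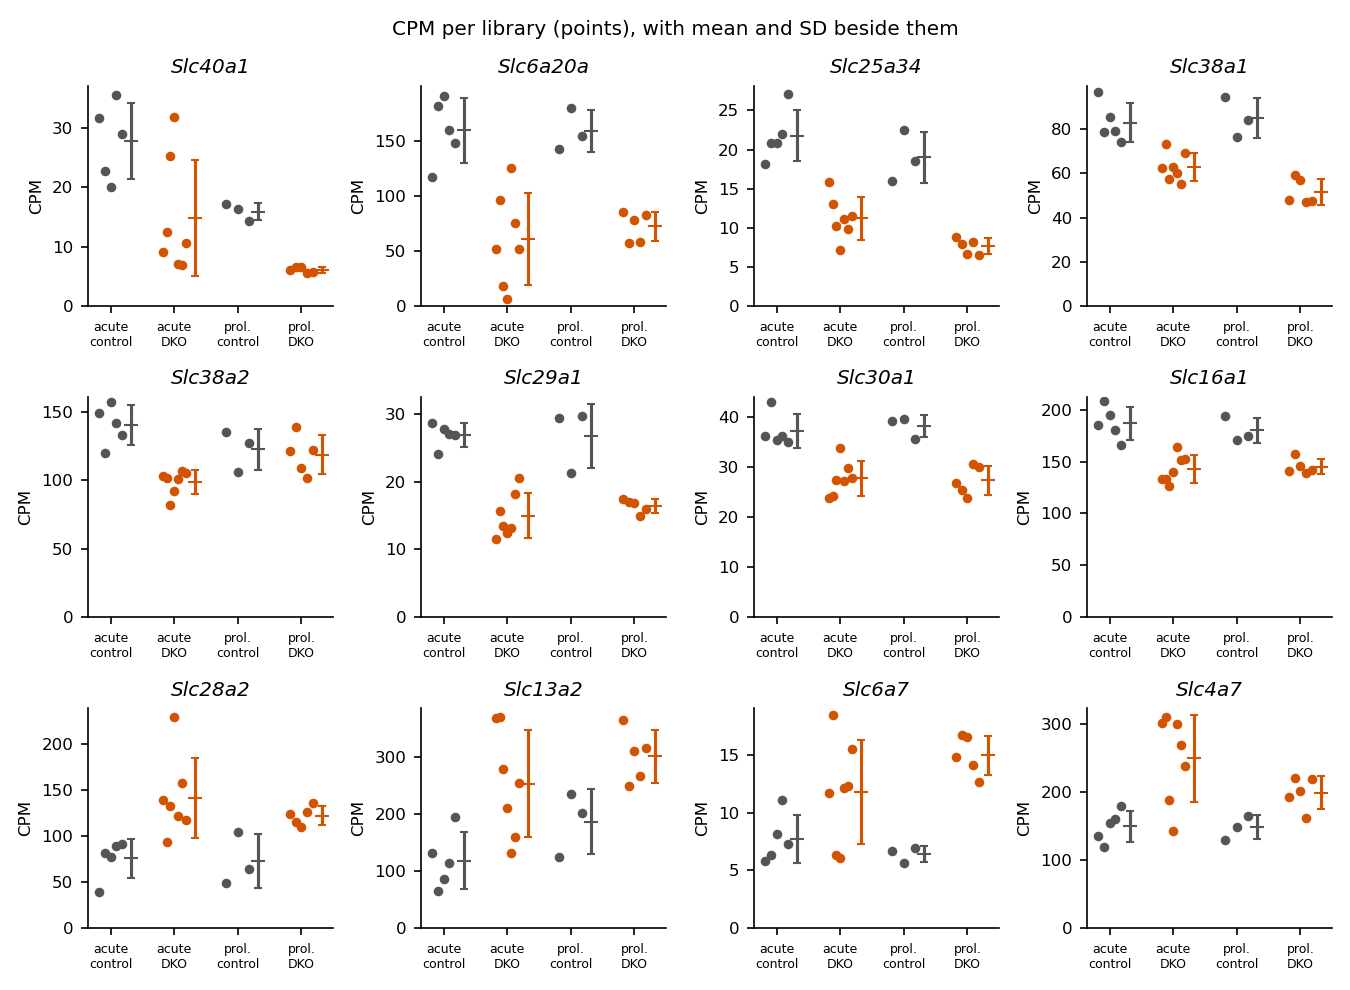
CPM of 12 genes in each library (points) for the acute and prolonged (prol.) groups, with mean and SD beside the points; the y axes start at 0 and differ between genes. Prolonged DKO libraries of Slc40a1 lie between 5.53 and 6.67 CPM below controls of 14.3 to 17.2 CPM, and the acute DKO libraries of Slc6a20a spread from 6.25 to 125 CPM.

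Organic ion carriers had 3 lower of 12 at the acute time (12.1% of all genes) and 4 lower and 1 higher at the prolonged time (8.94% and 5.74%). Slc22a3, which carries organic cations, rose at the prolonged time from 5.39, 3.90 and 5.04 CPM to 12.8, 8.47, 7.15, 7.13 and 9.32 CPM, all above controls (0.77 ± 0.17, limma adjusted p = 0.0118). Its acute change of 0.61 was not called. Without DKO 3 and 4 it was 0.92 (adjusted p = 0.000712), without DKO 4 alone 0.77 (0.0124), and with the animal-number block 0.92 (0.00895). Slc47a1, which exports organic cations, fell by 1.27 ± 0.35 and 0.64 ± 0.19 (0.0260 and 0.0393). Leaving out 1 of 5 libraries ended that call at each time: at the acute time controls 2 to 5 or DKO 3, and at the prolonged time controls 2 and 3 or DKO 2, 4 and 5 (up to 0.154). The animal-number block ended the acute one too (-0.77, 0.0891). Slc10a5 fell without overlap at both times, by 0.54 ± 0.13 and 0.54 ± 0.06 (0.0139 and 0.000246). Slc22a23 was lower at the prolonged time only (-0.38, 0.00161), and the carnitine carriers Slc22a4 and Slc22a5 were not called.

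Of 11 genes in families of vitamin carriers and relatives, 5 were lower and 1 higher at the prolonged time (8.94% and 5.74% of all genes). At the acute time 1 was lower and 1 higher (12.1% and 2.90%). The called genes Slc23a3 and Slc23a4 are counted as relatives of the ascorbate carriers. Slc5a6 is classed with the SLC5 family and is not among the 11. Without prolonged control 2 the prolonged falls were 2, and without control 3 or DKO 1, 2, 4 or 5 they were 3. Slc52a3, which takes up riboflavin, fell from 45.4, 55.4 and 58.5 CPM to 32.6, 40.2, 35.2, 41.9 and 33.0 CPM with no overlap (-0.53 ± 0.10, limma adjusted p = 0.00563). Its acute DKO libraries ran from 28.9 to 93.5 CPM, and the change of -0.26 was not called; without DKO 3 and 4 it was -0.53 (0.0168). The folate carriers Slc46a1 and Slc19a1 fell at the prolonged time by 0.46 and 0.30 (0.0342 and 0.0369), and Slc23a3 by 0.62 (0.0121). Slc23a3 was low, at 2.12 to 2.42 CPM in prolonged controls and 0.804 to 1.44 CPM in prolonged DKO libraries. Slc52a2 fell by 0.22 (0.0177, or 0.0575 without control 2), and Slc23a4 rose by 0.44 (0.0279). Slc23a4 lost its call without controls 1 or 3 or DKO 1, 4 or 5 (up to 0.125). Slc46a1 and Slc19a1 each lost theirs without controls 2 or 3 or DKO 1, 2, 4 or 5 (up to 0.150 and 0.169). Slc23a3 was also the acute fall (-0.76, 0.0236), which was lost without control 3 (0.0731) or control 4 (0.0615) and was -0.41 with the animal-number block (0.171). The thiamine carrier Slc19a3 rose at the acute time by 0.70 ± 0.19 (0.0224) and was not called without controls 1 (0.0612) or 2 (0.0591), or without DKO 3 and 4 together (0.0520), or with the animal-number block (0.0539).

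Of 28 ion and acid-base carriers, 1 was called at the acute time and 4 at the prolonged time, beside 15.0% and 14.7% of all genes. Slc4a7, which imports bicarbonate with sodium, rose at both. Acute controls read 135, 119, 154, 160.3 and 179 CPM and DKO libraries 142 to 309 CPM, median 268 CPM. Only DKO 4 at 142 CPM lay within the control range (0.70 ± 0.18, limma adjusted p = 0.0196), and the call was lost without control 1 (0.0517) or control 2 (0.0529). The prolonged rise was 0.42 ± 0.10 (0.0167), lost without control 1 (0.0667). Slc9a2, an apical sodium and proton exchanger, fell at the prolonged time from 157, 187 and 163 CPM to 113, 135, 116, 132 and 129 CPM, with no overlap (-0.43 ± 0.08, 0.00294). The other 2 were Slc8b1 (0.54) and the magnesium carrier Slc41a2 (-0.33), each lost without control 3 (0.0764 and 0.0799). Slc9a3, the main apical exchanger of the kind, changed by 0.21 (95% interval -0.17 to 0.59) and -0.17 (-0.44 to 0.11) and was not called. The chloride and bicarbonate exchanger Slc26a3 changed by 0.01 (-0.15 to 0.17) and -0.02 (-0.20 to 0.15), also without a call. Slc26a6, Slc4a4 and Slc12a2 were not called either, though the prolonged change of Slc12a2, which loads chloride at the basolateral side, passed with DESeq2 (-0.23, 0.0133) and without control 2 (-0.34, 0.0104).

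Of 40 mitochondrial carriers, 2 were higher and 2 lower at each time, a smaller share than the 15.0% and 14.7% of all genes called. Slc25a34, a mitochondrial carrier of uncertain substrate, was lower in every DKO library. Acute controls read 18.2, 20.9, 20.8, 22.0 and 27.1 CPM and DKO libraries 7.13 to 15.9 CPM, median 11.2 CPM. Prolonged controls read 16.0, 22.5 and 18.5 CPM and DKO libraries 8.84, 7.97, 6.74, 8.25 and 6.55 CPM. The log2 fold changes were -0.92 ± 0.15 (limma adjusted p = 0.00180) and -1.20 ± 0.13 (0.000126). Slc25a28, which carries iron into mitochondria, rose by 0.27 at each time (0.0456 and 0.0108). Its acute call did not hold without any 1 of 10 of the 12 libraries (0.105 without control 2) or with the animal-number block (0.303), and its prolonged call held in all of them. The other calls were Slc25a22 (0.41) and Slc25a10 (-0.22) at the acute time, and Slc25a36 (0.33) and Slc25a44 (-0.21) at the prolonged time. None of these 4 kept its call in every leave-one-out fit: the highest adjusted p was 0.121 for Slc25a22 (without control 3), 0.0562 for Slc25a10 (without control 4), 0.0841 for Slc25a36 (without control 3) and 0.132 for Slc25a44 (without control 2). Slc25a10 was further from a call when rescaled, at -0.13 with TMM-scaled CPM (0.246) and -0.12 with RLE factors (0.314) or DESeq2 (0.326), and with the animal-number block it was -0.13 (0.198). The acylcarnitine carrier Slc25a20 was not called.

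Slc2a13, a carrier of inositol, fell at the prolonged time by 0.79 ± 0.14 (limma adjusted p = 0.00376). It was low, at 2.24 to 2.92 CPM in prolonged controls and 0.873 to 1.51 CPM in DKO, and its change ran from -1.25 to -0.70 over the alternative fits. Slc5a4b, of the sodium and glucose carrier family, fell at that time by 1.13 ± 0.31 (0.0325). That call was lost without control 2 (0.128), control 3 (0.100), DKO 3 (0.0506) or DKO 4 (0.0698). The vesicular carrier Slc18a2, for monoamines, rose at the prolonged time by 0.64 ± 0.14 (0.00953). Slc18b1, for polyamines, rose at both times, by 0.26 (0.0227) and 0.27 ± 0.05 (0.00430), with the acute call lost without control 3 (0.0730) or control 5 (0.0508) or with the animal-number block (0.0717). Slc27a4, a fatty acid carrier, rose at the acute time by 0.38 ± 0.11 (0.0355), a call lost without any 1 of 7 libraries (up to 0.0992 without control 1). None of 3 phosphate carriers was called, and Slc34a2, the apical one, changed by -1.12 ± 0.61 and -0.05 ± 0.28. The choline carriers Slc44a1 and Slc44a3 were lower at the acute time (-0.37 and -0.33), and Slc44a3 also at the prolonged time (-0.34). Slc44a3 was not called at the acute time with TMM-scaled CPM (0.0894). Of 26 Golgi and endoplasmic reticulum carriers, 2 were higher and 1 lower at the acute time (2.90% and 12.1% of all genes tested). At the prolonged time 1 was higher and 1 lower (5.74% and 8.94%). Slc35d1 (0.23) and Slc35g1 (0.20) were higher at the acute time, and Slc35e2 was lower at both (-0.34 and -0.28). The glucose-6-phosphate carrier Slc37a4 was higher at the prolonged time (0.34). Several of these calls rest on single libraries. That of Slc35d1 was lost without any 1 of 11 libraries (0.125 without control 1), and the acute calls of Slc35e2 and Slc44a3 without any 1 of 6 each (0.0746 and 0.0856 without control 3). Slc35e2 at the acute time was also not called with TMM-scaled CPM (-0.26, 0.111), RLE factors (-0.24, 0.149), DESeq2 (-0.24, 0.145) or the animal-number block (-0.16, 0.301). That of Slc35g1 was lost without control 1 (0.0700), control 4 (0.0781) or DKO 3 (0.0588), and that of Slc37a4 without prolonged control 1 (0.109), control 3 (0.109) or DKO 5 (0.0686). Slc37a2 had the largest acute change of that class (0.96 ± 0.33) and was not called (0.0696). Slc2a10 was lower at the acute time (-0.60) and Slc5a9 at the prolonged time (-0.48). Among genes that are no carriers, Slc2a4rg-ps rose at the prolonged time by 0.47 ± 0.08 (0.00351), and Slc22a13b-ps fell by 0.94 ± 0.24 and 1.51 ± 0.32 (0.0194 and 0.00810). Its acute call was lost without control 3 (0.0615) or control 4 (0.0565), and with the animal-number block the change was -0.46 (0.192).

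**Figure D4:**
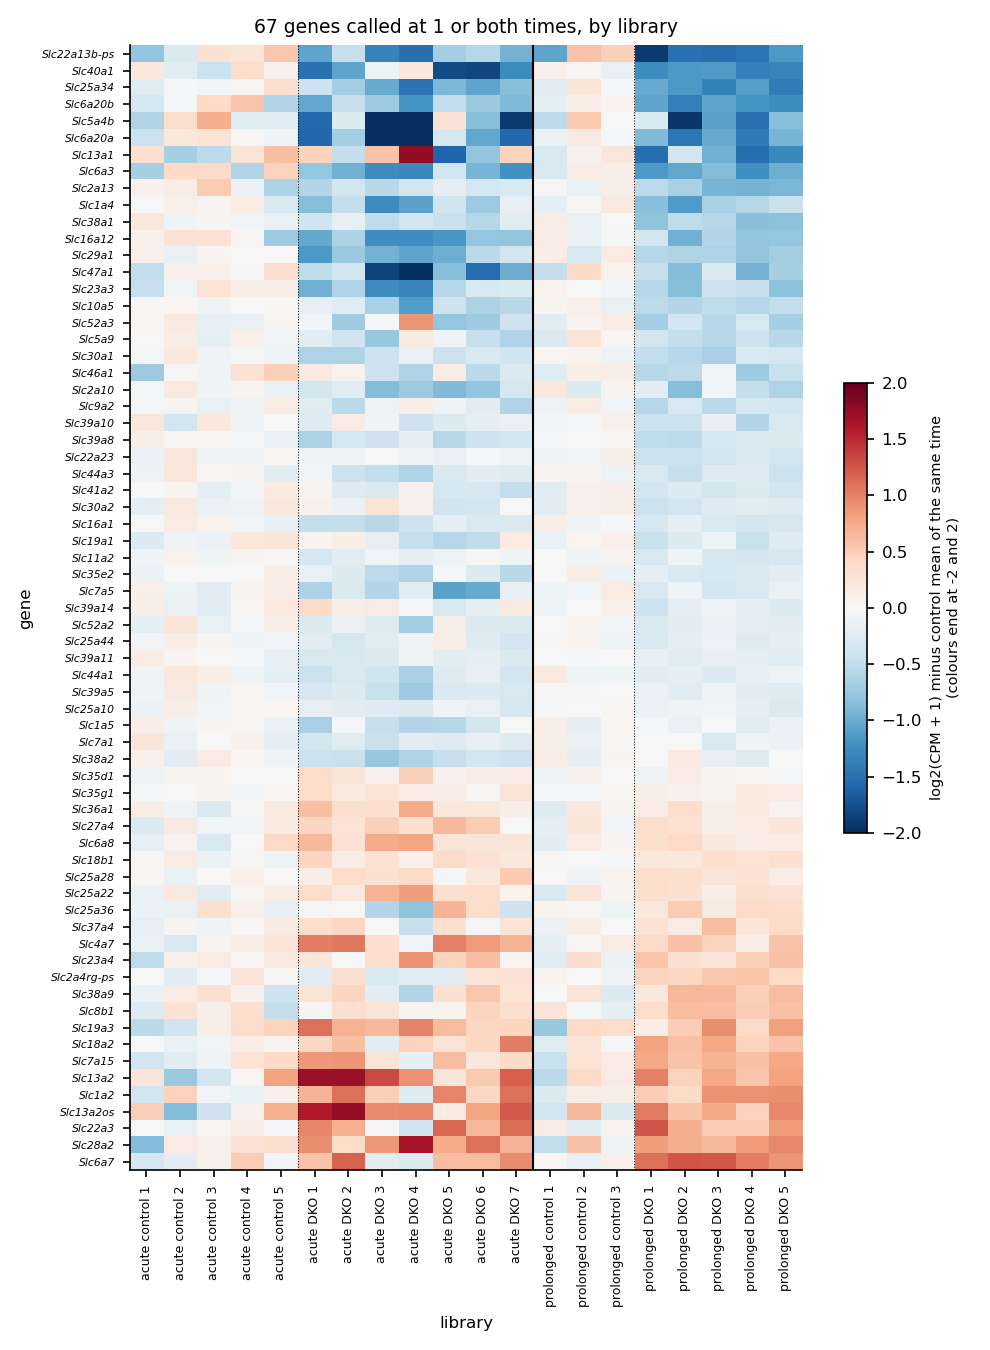
Rows are 67 of the 68 genes called at 1 or both times, ordered by prolonged log2 fold change, and columns the 20 libraries; colour is log2(CPM + 1) minus the control mean of the same time, ending at -2 and 2. Acute DKO 3 and 4 differ from the other acute DKO libraries for genes such as Slc6a20a, at 18.6 and 6.25 CPM, and Slc40a1, at 25.3 and 31.8 CPM.

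In a list of 34 carriers with textbook roles in jejunal epithelium, 3 were higher (Slc19a3, Slc27a4 and Slc28a2) and 6 lower at the acute time, and 2 higher (Slc28a2 and Slc37a4) and 11 lower at the prolonged time. The shares over all genes were 2.90% higher and 12.1% lower, and 5.74% and 8.94%. Of 35 ABC transporters tested at the acute time 5 were lower (Abca2, Abcc6, Abcb10, Abcc3 and Abcc4), and of 32 at the prolonged time all of these but Abcc4 were lower and Abca1 was higher. Of the 5 Slco carriers tested, Slco4a1 and Slco3a1 were lower at both times, and Slco5a1 was higher at the prolonged time. The called shares were thus 5 of 35 and 5 of 32 for the ABC transporters and 2 of 5 and 3 of 5 for the Slco carriers, beside 15.0% and 14.7% of all genes tested. Sodium pump genes, which set the gradient that sodium-coupled carriers use, had 1 call, Fxyd3, lower at each time, of 6 acute and 5 prolonged genes tested. Among scaffold and trafficking genes of apical carriers, Ezr was higher at the acute time and Pdzk1 lower at the prolonged time. Of 10 carbonic anhydrases and chloride channels, 2 were higher at each time (Clcn2 with Clca4a at the acute, and with Car4 at the prolonged time), and 4 were lower, with Car8, Car9, Car12 and Ano1 lower at both. These 6 of 10 at each time stand beside 15.0% and 14.7% of all genes. This list and that of the 34 carriers were chosen with earlier results of these data known. Their shares therefore cannot be read as an excess over all genes.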

How the data were processed

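The authors deposited 1 table per time of CPM per gene symbol and library, and every column has the same sum, per the file headers and values. Build mm9, STAR, featureCounts 1.6.2 and DESeq2 appear in the submitters' processing notes, with no role given. The deposited tables also hold the authors' DESeq2 columns (signal, log2 fold change, p-value), which are not used here. There were 17294 acute and 16195 prolonged gene names, of which 24 acute names had become dates and 2 were repeated, none of them members.

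The members, gene lists and tests were chosen with earlier results of these data known. limma 3.58.1 (R 4.3.3) fitted log2(CPM + 1) at each time, on genes with 0.5 CPM in at least 5 acute or 3 prolonged libraries, with no covariate. Fold changes on this scale understate low genes. p-values were adjusted over all genes tested by Benjamini-Hochberg, at a threshold of 0.05. All 234 members passed the filter at both times. Effects of the 2 times were compared by their difference over the root of the summed squared standard errors.

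Every CPM was a whole multiple of 1 read within 0.01 reads, so reads were recovered for edgeR 4.0.16 and DESeq2 1.42.0 (for prolonged control 3 this evidence is weaker). DESeq2's filtering level was set to 0.05 after a first run at its default. Scripts were tested on simulated data. The labels call the libraries biological replicates, with animal numbers at the acute time only. Genes named in full were the 8 largest rises and falls per time without overlap and at 5 CPM or more, the largest change of each role class, and a list of 34 carriers; others were named where a count was small or after their values were seen. Among the alternatives were scaling, pseudocount, filter, blocks and leaving out libraries. Some genes are not reported here. No mm9 genome was used, so positions are given for RefSeq promoters only.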

Additional observations from a re-analysis of the deposited data

Results flagged for a closer look

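In 198 groups of 4 to 10 libraries, 7 had a library far from the others by Dixon's criterion at the 95% level, where chance gives about 1 group in 20. Slc13a1 was 340.0 CPM in acute DKO 4, with the next library at 148 CPM, and Slc52a3 was 93.5 CPM there, with the next at 49.1 CPM. Slc28a2 was 39.3 CPM in acute control 1, below the next at 77.9 CPM. Slc10a5 was 53.3 CPM in acute control 3, below 56.9 CPM, and Slc30a1 was 43.1 CPM in acute control 2, above 36.3 CPM. In prolonged DKO 2, Slc11a2 was 89.4 CPM, above 75.3 CPM, and Slc25a43 was 0.185 CPM, below 0.688 CPM.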

How the results depend on the processing

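No called gene changed direction under any alternative run. With DESeq2 the acute rises were 30 instead of 13. Leaving out 1 library gave 4 to 16 acute rises, 16 to 29 acute falls, 12 to 23 prolonged rises and 22 to 36 prolonged falls. With the replicate number as a block, on the numbers that both groups share, the acute counts were 3 higher and 14 lower, and the prolonged counts 2 and 16. The same libraries without the block, a fit added after the data were seen, gave 11 and 26, and 9 and 21. Libraries of the same number correlated between -0.238 and 0.147, and no number was its own best match. The labels name no litter or day for them, but acute control 1 and acute DKO 1 have neighbouring animal numbers. With so few libraries, these correlations cannot settle whether the numbers mark pairs. With acute animals of neighbouring numbers as a block, the counts were 16 and 19, with 16 calls lost and 11 gained. Of the values for single named genes under the alternatives, 2265 stayed on their side of the threshold, 188 lost a call and 55 gained one. No gene differed between times under any alternative. No paired fit was made for the comparison between times, and a DESeq2 interaction was not run. Low genes limit precision most, since 1 read is 0.101 CPM in the smallest library, prolonged control 3.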
